A study of Homo sapiens with 8 samples.

Results

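SRD5A1 and the enzymes that make, activate or inactivate sex steroids around it were followed in DLD-1 cells, an established human colorectal adenocarcinoma line, after transfection with a miR-143 duplex. The 9 genes looked for were SRD5A1, SRD5A2, SRD5A3, AKR1C3, HSD17B4, HSD17B8, HSD17B11, HSD17B12 and STS. A gene was counted as measured where at least 1 probe set of the array was annotated to it and to no other gene, under its current or an older symbol. This gave 8 of the 9 genes and 17 of 41091 single-gene probe sets: 3 for SRD5A1, 4 each for HSD17B12 and STS, 2 for HSD17B4 and 1 each for SRD5A2, AKR1C3, HSD17B8 and HSD17B11. SRD5A3, the polyprenol reductase of dolichol synthesis, matched no single-gene probe set.

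Both groups held 4 arrays (Affymetrix HG-U133 Plus 2.0, a short-oligonucleotide platform) of total RNA taken 24 h after transfection. The miR-143 cells received 50 nM of a duplex that mimics the mature miRNA, by lipid transfection (Lipofectamine). The other cells are called mock transfected. The study's methods name a scrambled siRNA as control for its transfections, and do not say what the mock cells of the arrays received. All arrays are labelled miR-143 or mock and none as a control duplex. An effect of miR-143 and one of carrying any duplex therefore cannot be told apart. All cells were of 1 line, transiently transfected. The study's methods call the samples biological replicates, while the labels do not say what a replicate number stands for.

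Steroid 5α-reductases use NADPH to saturate the A ring of testosterone, progesterone and other steroids, and the type 1 enzyme, SRD5A1, is the form of skin, liver and many tumours. 17β-hydroxysteroid dehydrogenases interconvert the ketone and hydroxyl forms of androgens and oestrogens at carbon 17, although several members of that numbered family act mainly on fatty acids. Steroid sulfatase (STS) frees oestrone and dehydroepiandrosterone from their circulating sulfates, so that a cell without its own steroidogenesis can still form active hormone. In the gut epithelium such enzymes are known as a means of local hormone conversion.

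miR-143 pairs with transcripts through the seed, bases 2 to 8 of its mature strand, shown in capitals below for both arms of the hairpin because the transfected duplex is the agent of the comparison. Sequences and positions are those of RefSeq (GRCh38.p14), where both arms lie on the plus strand of chromosome 5, at chr5:149428978-149428998 for the 3p arm and chr5:149428944-149428965 for the 5p arm.
hsa-miR-143-3p: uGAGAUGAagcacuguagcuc
hsa-miR-143-5p: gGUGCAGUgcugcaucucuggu
The seeds of the arms share no 7-base word. A transcript that pairs with the 3p seed carries UCAUCUC. Whether any of the transcripts measured here carries it was not tested.

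The values are log2 signals, so that a difference of 1 is a doubling. Probe sets differ in how strongly they bind their target, so a higher signal of one than of another does not mean more transcript, and a place above or below the median is given only as a description of signal. The medians of the 8 arrays lay between 7.15 and 7.24. Replicate 4 of both groups stood apart: on the first principal component, with 63.6% of the variance, it scored 33.1 in miR-143 and 35.3 in mock cells, while the other 6 arrays lay between −24.8 and −4.48. The signals of all 7 colorectal epithelial markers lay above the median signal of all genes, with EPCAM at 13.58 in miR-143 and 13.61 in mock cells on average. Of the other lists, 1 of 6 mesenchymal markers (COL1A1), 0 of 4 measured leukocyte markers and 0 of 5 steroidogenic markers (STAR, CYP11A1, CYP17A1, NR5A1, HSD3B2) lay above it, and the 5 steroidogenic means were between 6.75 and 7.05. The median change was −0.109 for the epithelial list, with 7 of 7 negative (against 55.6% of all genes). The groups were apart for VIL1 alone (−0.10), against 1.24% of all genes apart and lower. VIL1 averaged 7.55 in miR-143 and 7.65 in mock cells, near the median of all genes (7.56). Its limma adjusted p was 0.572 with the replicate number as a block. The summed level of the list ranged from 78.2 to 83.3 in miR-143 and from 79.6 to 83.5 in mock cells. The part of this list in the results was not tested.

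SRD5A1 was lower in miR-143 cells on the brightest of its probe sets, 204675_at, whose design record is a RefSeq transcript of the gene. Its signal was 9.80, 9.70, 9.56 and 9.54 in miR-143 replicates 1 to 4, against 10.20, 9.93, 10.06 and 9.97 in mock replicates 1 to 4. The highest miR-143 array lay below the lowest mock array. The means were 9.65 ± 0.12 in miR-143 and 10.04 ± 0.12 in mock cells (SD, n = 4 each), a log2 fold change of −0.39 (95% interval −0.57 to −0.20), or 0.764-fold. The exact permutation test over the 70 splits of the arrays gave a two-sided p = 0.0286, the smallest it can give. Across all 19752 genes, SRD5A1 stood at rank 37 by limma's p, and its adjusted p of 0.471 did not pass the threshold of 0.05.

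The call on SRD5A1 turned on whether arrays of the same number were treated as pairs. SRD5A1 differed by −0.392, −0.234, −0.494 and −0.431 in pairs 1 to 4, lower in 4 of 4. With the replicate number as a block, the same change had an SE of 0.055 instead of 0.082 and limma's adjusted p was 0.00812. The pairing has no source but the data. In pair 1 the correlation behind it (0.109) barely passed the limit of 0.1, and replicates 1 and 2 correlated more with another number (0.250 and 0.538) than with their own (0.109 and 0.167). The blocked call was lost without pair 3 (adjusted p = 0.0664) or pair 4 (adjusted p = 0.0695). The study named SRD5A1 among its putative miR-143 targets, from its lower signal on these arrays together with a miR-143 seed site in its 3'UTR. The direction of SRD5A1 here is therefore not independent evidence.

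**Figure D1:**
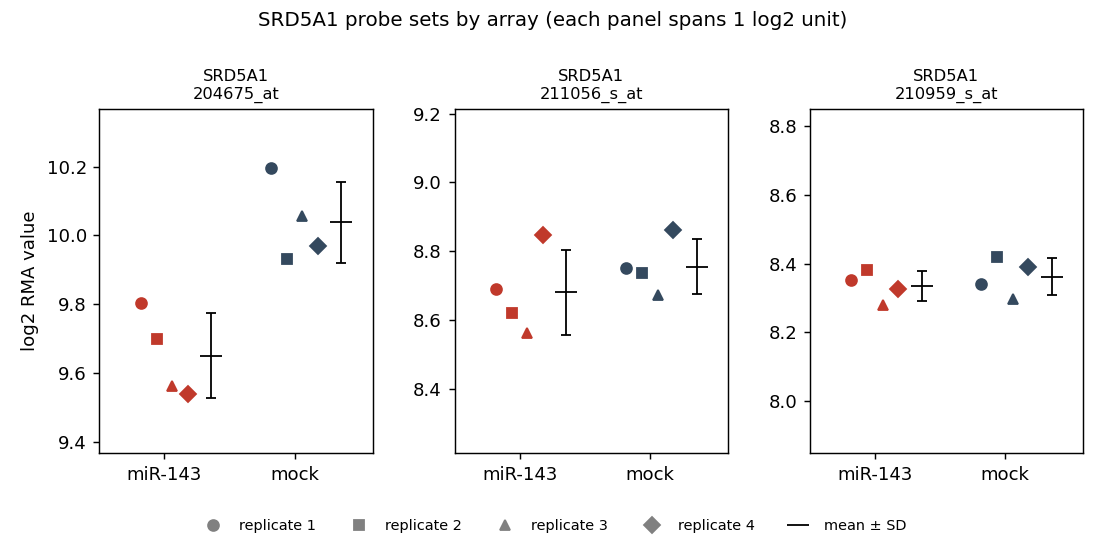
RMA log2 signal (vertical axis) of the 3 SRD5A1 probe sets on each of the 8 arrays, with miR-143 left of mock, points for arrays numbered by replicate and bars for the mean ± SD of 4 arrays. The groups are apart on 204675_at (9.54 to 9.80 in miR-143 and 9.93 to 10.20 in mock cells) and overlap on the other probe sets.

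The other SRD5A1 probe sets had fold changes nearer 0. Probe set 211056_s_at read 8.69, 8.62, 8.56 and 8.85 in miR-143 cells, against 8.75, 8.74, 8.67 and 8.86 in mock cells. The groups overlapped, and the array of replicate 4 was the highest in both. The log2 fold change was −0.07 (95% interval −0.24 to 0.09, limma adjusted p = 1.0, and 0.720 with the block), with the miR-143 array the lower in 4 of 4 pairs. Probe set 210959_s_at read 8.35, 8.38, 8.28 and 8.33 in miR-143 cells, against 8.34, 8.42, 8.30 and 8.39 in mock cells. These values overlapped almost fully, with a log2 fold change of −0.03 (95% interval −0.14 to 0.09, limma adjusted p = 1.0, and 0.929 with the block).

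On the fit over all probe sets, 204675_at had an adjusted p of 0.553 by limma, and 0.0100 with the block. A direct comparison of the SRD5A1 probe sets, added after their values were seen, took the difference between them within each array. The signal of 204675_at minus that of 210959_s_at changed by −0.36, with no overlap between the groups (exact permutation p = 0.0286, adjusted over both comparisons 0.0571). The signal of 204675_at minus that of 211056_s_at changed by −0.31, where the groups overlapped (exact permutation p = 0.0571, adjusted 0.0571). Over the 8 arrays, 204675_at correlated with 211056_s_at at r = 0.238 and with 210959_s_at at r = 0.246, and these points share arrays and normalization. Neither difference passed after adjustment, which the test allowed only if both comparisons reached its smallest p of 0.0286. Averaging the 3 gave a log2 fold change of −0.16 (limma adjusted p = 1.0, and 0.171 with the block).

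**Figure D2:**
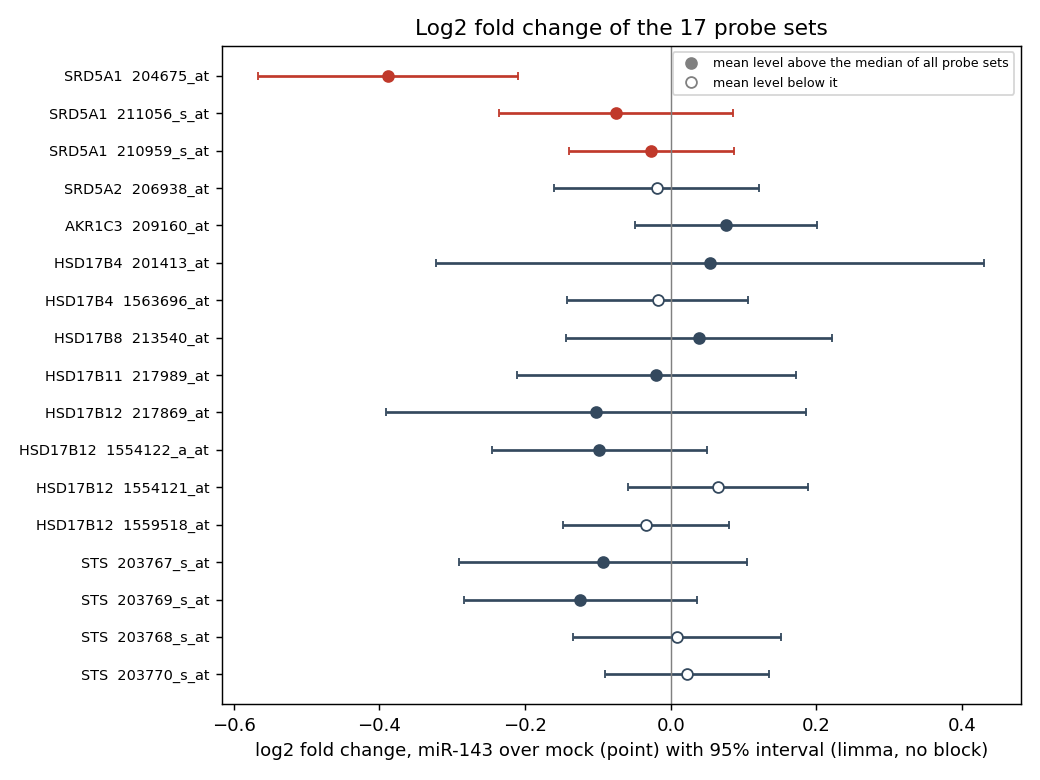
Log2 fold change, miR-143 over mock (horizontal axis), of the 17 probe sets of the 8 measured genes, with the 95% interval of the unblocked limma fit over all single-gene probe sets, which shares its variance prior over other features than the gene-level fit of the text. The interval of 204675_at (SRD5A1) ends below 0, while those of the other 16 cross 0.

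SRD5A1 lay between −0.44 and −0.16 in all 24 ways of processing the gene-level values, and passed the adjusted threshold in 4, each of them with the block. Its sign could not change where arrays or pairs were left out, because every miR-143 array lay below every mock array. The block, the low-value filter, the trended prior and the probe set of largest interquartile range returned the same −0.39. The constant sign is therefore no further support. Leaving out 1 array at a time moved it between −0.44 and −0.34 with adjusted p between 0.511 and 1.0. Without both replicate 4 arrays it was −0.37 (adjusted p = 0.163).

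**Figure D3:**
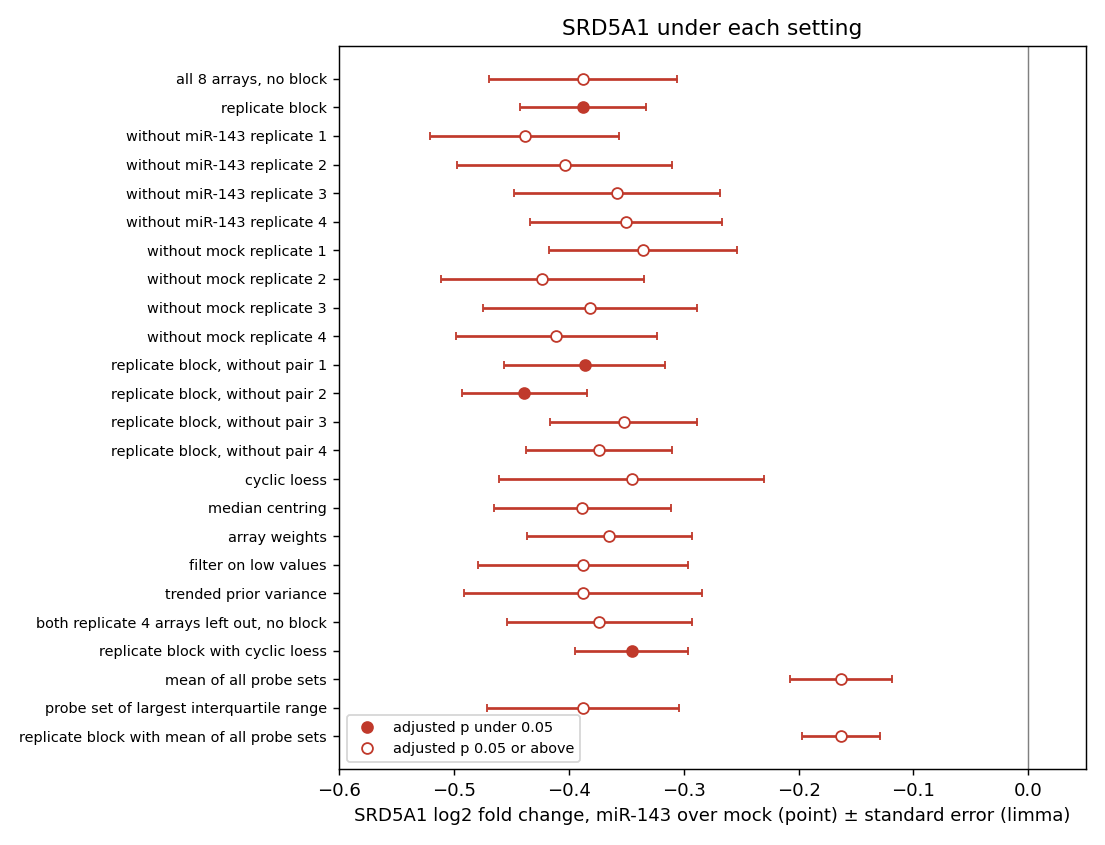
Log2 fold change of SRD5A1, miR-143 over mock (horizontal axis), with its standard error as bars, under each of the 24 gene-level settings; filled points pass an adjusted p of 0.05. All lie below 0, and the 4 filled points are fits with the replicate block.

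SRD5A2, the type 2 reductase of prostate and genital skin, lay below the median of all genes. Its signal was 6.89, 6.88, 6.90 and 6.93 in miR-143 cells, against 7.07, 6.94, 6.84 and 6.81 in mock cells. The miR-143 arrays lay within the spread of the mock arrays, and the log2 fold change was −0.02 (95% interval −0.17 to 0.13, exact permutation p = 0.8). AKR1C3, an aldo-keto reductase that reduces androstenedione to testosterone, read 7.61, 7.71, 7.63 and 7.75 in miR-143 cells, against 7.57, 7.52, 7.65 and 7.65 in mock cells. Its change was 0.08 (95% interval −0.06 to 0.21, exact permutation p = 0.171), the most positive among the measured members' brightest probe sets. The groups overlapped, and replicate 4 was the highest array of both.

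HSD17B4, the peroxisomal bifunctional enzyme of β-oxidation that also oxidises oestradiol, had 10.53, 10.36, 10.42 and 11.10 in miR-143 cells, against 10.45, 10.49, 10.37 and 10.89 in mock cells on 201413_at. Replicate 4 was the highest array of both groups, by 0.667 in miR-143 and 0.450 in mock cells over the mean of the other replicates. The groups overlapped and the log2 fold change was 0.05 (95% interval −0.33 to 0.43, exact permutation p = 0.743). The second HSD17B4 probe set, 1563696_at, lay below the median of all probe sets and changed by −0.02.

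HSD17B8, which as a mitochondrial reductase works in fatty acid synthesis with CBR4, had 8.88, 8.73, 8.79 and 9.07 in miR-143 cells, against 8.77, 8.84, 8.74 and 8.95 in mock cells. Its replicate 4 arrays were again the highest, by 0.271 in miR-143 and 0.165 in mock cells. The change was 0.04 (95% interval −0.15 to 0.23, exact permutation p = 0.657). HSD17B8 and HSD17B4 varied together over the 8 arrays (r = 0.969), with replicate 4 at the top of both. The other r values with HSD17B4 were 0.769 for HSD17B12, 0.655 for HSD17B11, 0.525 for STS, 0.473 for AKR1C3, −0.122 for SRD5A2 and −0.316 for SRD5A1, described with no test.

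HSD17B11, an enzyme of lipid droplets, had 10.51, 10.55, 10.44 and 10.58 in miR-143 cells, against 10.54, 10.42, 10.40 and 10.79 in mock cells. The groups overlapped, with replicate 4 the highest array of both, and the log2 fold change was −0.02 (95% interval −0.22 to 0.18, exact permutation p = 0.943). HSD17B12, the ketoacyl reductase of very long chain fatty acid elongation in the endoplasmic reticulum, had 11.70, 11.69, 11.51 and 11.95 in miR-143 cells, against 11.81, 11.59, 11.69 and 12.16 in mock cells on 217869_at. Here too replicate 4 was the highest array of both groups. The change was −0.10 (95% interval −0.39 to 0.19, exact permutation p = 0.571).

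The other HSD17B12 probe sets are given as a description, with no test between them. Probe set 1554122_a_at changed by −0.10, while 1554121_at and 1559518_at, both below the median of all probe sets, changed by 0.06 and −0.03. Over the 8 arrays, 217869_at had r = −0.855 with 1554121_at, r = −0.561 with 1559518_at and r = 0.188 with 1554122_a_at. None of the 4 passed a limma threshold.

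STS, the microsomal sulfatase, had 8.37, 8.41, 8.32 and 8.45 in miR-143 cells, against 8.52, 8.30, 8.37 and 8.73 in mock cells on 203767_s_at. The groups overlapped, and replicate 4 was the highest array of both. The log2 fold change was −0.09 (95% interval −0.30 to 0.11, exact permutation p = 0.457). The other STS probe sets changed by −0.12 on 203769_s_at, 0.01 on 203768_s_at and 0.02 on 203770_s_at, the last 2 below the median of all probe sets.

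**Figure D4:**
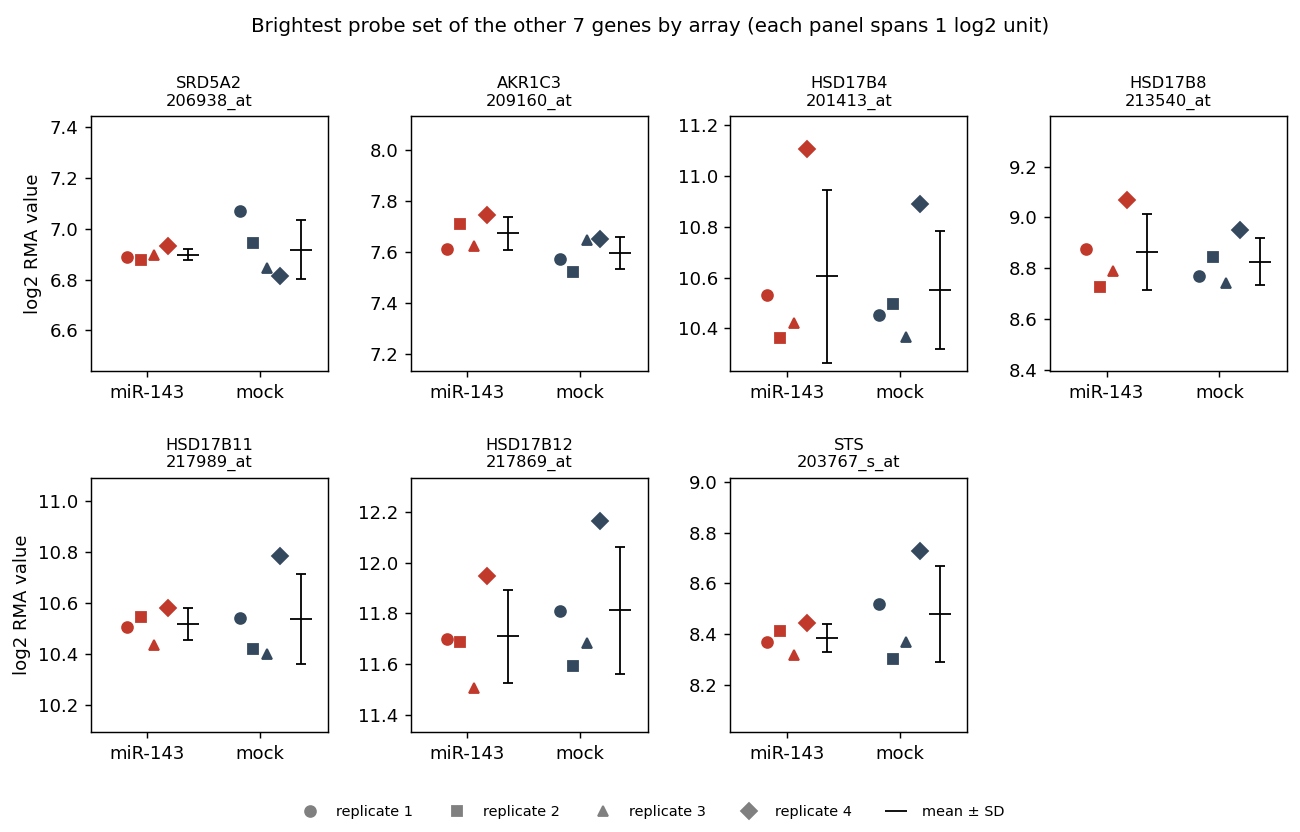
RMA log2 signal (vertical axis, one scale per panel) of the brightest probe set of the 7 other measured genes on each array, with miR-143 left of mock, points numbered by replicate and bars for the mean ± SD of 4 arrays. The groups overlap in every panel, and replicate 4 is the top array of both groups for every gene but SRD5A2.

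Set against all genes, the 8 measured members showed 1 lower gene, SRD5A1, at each threshold used without adjustment or with the block. The study had named it from its lower signal on these arrays. The counts that follow are therefore description and not independent evidence of an excess. No gene on the array was called in either direction by limma without the block (0% lower and 0% higher), where the lowest adjusted p of any gene was 0.126. At an unadjusted p under 0.05, 1 of 8 members was lower and 0 higher, against 1.7% lower and 0.714% higher of all genes. SRD5A1 alone had its groups apart, against 1.24% of genes lower and 0.719% higher. With the block, 1 of 8 was called lower and 0 higher, against 0.623% lower and 0.167% higher. Among the 17 single-gene probe sets, 0 were called without the block (against 0.00243% lower and 0% higher of all) and 1, 204675_at, was called lower with it (against 0.416% lower and 0.11% higher). The same probe set was the 1 of 17 lower at an unadjusted p under 0.05 (against 1.86% lower and 0.713% higher) and the 1 of 17 with its groups apart (against 1.25% lower and 0.781% higher), and 11 of 17 changes were negative (against 55.8%). The changes of 5 of the 8 members were negative, against 55.6% of genes, and their median was −0.02, against −0.01 over all genes.

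Whether SRD5A1 changed more than the other members was asked of the difference between both genes within each array, in 7 pairs of genes. SRD5A1 minus AKR1C3 changed by −0.46, SRD5A1 minus HSD17B8 by −0.43 and SRD5A1 minus SRD5A2 by −0.37, each with the miR-143 arrays all below the mock arrays (exact permutation p = 0.0286, adjusted over the 7 pairs 0.0667). Against HSD17B11 the difference was −0.37 (exact permutation p = 0.0571, adjusted 0.1). The differences from HSD17B4 (−0.44), STS (−0.29) and HSD17B12 (−0.28) had exact permutation p between 0.114 and 0.143 and an adjusted p of 0.143, and the groups overlapped. So 0 of the 7 passed, while without the mock replicate 4 array 5 passed, at an adjusted p of 0.04. The smallest p the test can give is 0.0286, so a pair at that p passes the adjustment only if enough other pairs reach it too. The lack of a pass therefore does not show that SRD5A1 changed like the other members. SRD5A1 was also named by the study from its lower signal on these arrays, which favours low p values here. Neither those p values nor the 5 passes without mock replicate 4 are therefore independent evidence that SRD5A1 changed more.

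Genes of the wider steroid and fatty acid pathways were described by 8 lists of 107 genes, of which 92 were measured. None of the 92 was called without the block (against 0% of all genes in either direction). At an unadjusted p under 0.05, 3 of 92 were lower and 0 higher, against 1.7% lower and 0.714% higher of all genes. With the block 1 of 92, CYP1B1, was called lower and 0 higher, against 0.623% lower and 0.167% higher. Their changes were negative for 61 of 92 (66.3%, against 55.6% of all genes), with a median of −0.02. Of the 22 measured hydroxysteroid dehydrogenases and aldo-keto reductases, 13 were negative (median −0.01).

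HSD17B7, which reduces oestrone and also serves in cholesterol synthesis, was the member of that list with the lowest p. It had 10.33, 10.42, 10.27 and 10.52 in miR-143 cells, against 10.56, 10.54, 10.60 and 10.84 in mock cells. The groups did not overlap, for 1 of 22 genes in this list and 0 in each other pathway list. Over all genes, 1.24% were apart and lower and 0.719% apart and higher. The log2 fold change of HSD17B7 was −0.25 ± 0.08 (SE, exact permutation p = 0.0286, limma adjusted p = 1.0, and 0.0608 with the block). In the same list RDH5 and HSD3B1 changed by −0.06 and −0.07, below the median of all genes and with overlapping groups.

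CYP1B1, a cytochrome P450 that hydroxylates oestradiol, had 9.04, 8.64, 8.55 and 9.25 in miR-143 cells, against 9.33, 9.35, 9.01 and 9.61 in mock cells. The groups overlapped because both replicate 1 and replicate 4 of miR-143 reached past the lowest mock array, while the miR-143 array was the lower in 4 of 4 pairs. The log2 fold change was −0.46 ± 0.17 (SE), with an exact permutation p = 0.0857 and limma's adjusted p = 1.0. With the block the SE was 0.066 and limma's adjusted p 0.00923, a call lost without pair 3 (adjusted p = 0.0587). In its list of P450s, redox partners and STAR, 11 of 15 were negative (median −0.03), among them CYB5A, a redox partner of the lyase reaction, at −0.13. CYP7B1, an oxysterol hydroxylase, was at −0.08 and lay below the median of all genes.

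**Figure D5:**
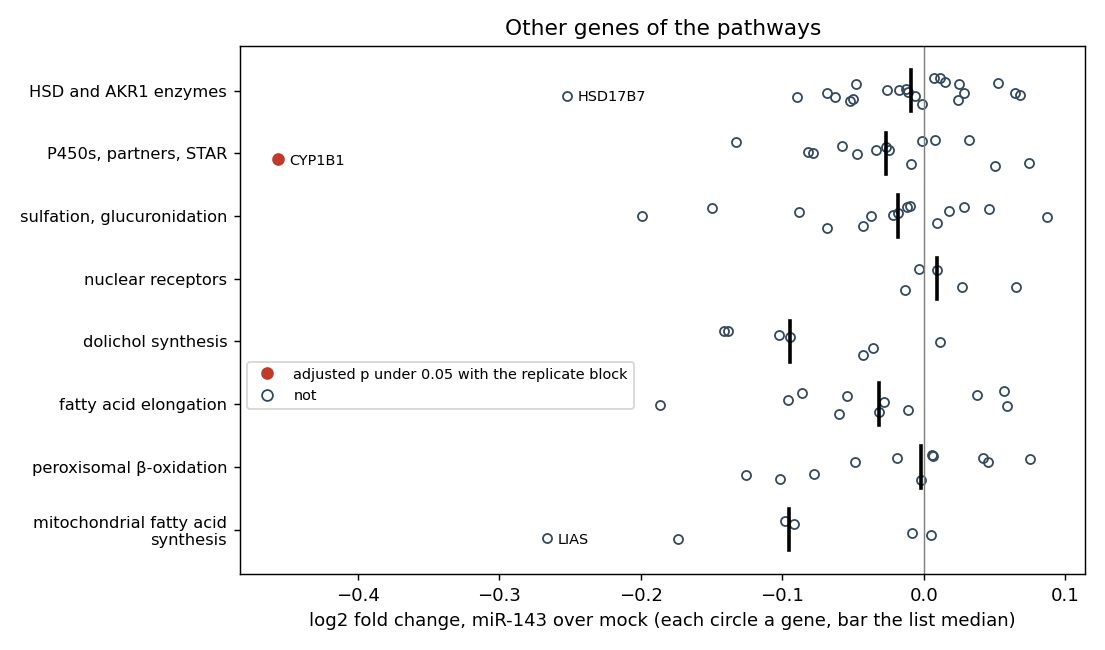
Log2 fold change, miR-143 over mock (horizontal axis), of the 92 measured genes of the 8 pathway lists (rows), 1 circle a gene, with a black bar at each list's median, the called gene filled and heights within a row spread only for legibility. CYP1B1, at −0.46, is the one gene called with the block, and the list medians lie between −0.09 and 0.01.

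The lists around the other members held no call with or without the block. In sulfation, glucuronidation and sulfatase activation 10 of 15 were negative, with ABCC4, an exporter of conjugates, at −0.15 and PAPSS1, which makes the sulfate donor, at −0.20. SULT2A1, a steroid sulfotransferase, was at 0.09 and lay below the median of all genes. In dolichol synthesis, the pathway of SRD5A3, 6 of 7 were negative (median −0.09), with the subunits of the prenyltransferase NUS1 and DHDDS at −0.14 each and GGPS1 at −0.10. In mitochondrial fatty acid synthesis, the pathway of HSD17B8, 5 of 6 were negative (median −0.09).

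LIAS, the lipoic acid synthase of that list, had 8.74, 8.48, 8.26 and 8.73 in miR-143 cells, against 8.72, 8.73, 8.78 and 9.03 in mock cells, with overlapping groups. Its log2 fold change was −0.27 (limma adjusted p = 1.0, and 0.201 with the block). OXSM, the ketoacyl synthase, was at −0.17 and CBR4 at −0.10. In fatty acid elongation, the pathway of HSD17B12, 8 of 11 were negative (median −0.03), with the dehydratase HACD3 at −0.19. ELOVL5 at −0.10 and HACD4 at −0.09 lay below the median of all genes. In peroxisomal β-oxidation, the pathway of HSD17B4, 6 of 11 were negative (median 0.00), with the import receptor PEX5 at −0.13, PECR at −0.08 and DECR2 at 0.07. Of the 5 measured nuclear receptors for steroids, 2 were negative, and the progesterone receptor PGR (0.06), the oestrogen receptor ESR1 (0.03) and the glucocorticoid receptor NR3C1 (−0.01) had overlapping groups. PGR and NR3C1 lay below the median of all genes.

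The genes whose signal followed that of SRD5A1 most closely over the 8 arrays, among genes above the median, were TMEM68 (r = 0.979), UMAD1 (r = 0.968), CCN3 (r = 0.966), RNF227 (r = 0.963) and FRMD8 (r = 0.963). They were picked as the highest r among the 9876 genes above the median. Each had all miR-143 arrays below all mock arrays (against 1.24% of all genes), so part of each r is the difference between the groups. Within the miR-143 arrays alone r lay between 0.809 and 0.985, and within the mock arrays between 0.844 and 0.911, over 4 arrays each. The separation and these r values follow in part from the choice of genes on the same arrays, and are given as description only. UMAD1 averaged 7.56 ± 0.07 in miR-143 and 7.91 ± 0.12 in mock cells, and FRMD8 averaged 9.63 ± 0.07 in miR-143 and 9.97 ± 0.10 in mock cells (SD, n = 4 each). Their limma adjusted p values were 0.424 for UMAD1 and 0.365 for FRMD8, and with the block 0.00768 and 0.0228. The changes of TMEM68 (−0.21), RNF227 (−0.25) and CCN3 (−0.11) were called in neither fit.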

How the data were processed

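The authors deposited log2 values per probe set, made by RMA in the affy package per the labels (versions and settings are not given in the sources used here). RMA corrects background, equalises the arrays' distributions and summarises each probe set, which can compress small changes. Of 54675 probe sets, 41091 carried 1 gene symbol in the platform annotation (43 symbols updated through RefSeq), 1801 several, 11721 none, and 62 were controls. Each of 19752 genes was read from its probe set of highest mean. miR-143 was tested against mock with limma 3.58.1 (lmFit, eBayes; R 4.3.3) without a block, over all genes and over all single-gene probe sets, with Benjamini-Hochberg adjustment at 0.05, after tests on simulated data. The simulated arrays had independent noise for each gene and array and no pairing. They therefore do not show how the fits act where arrays vary together, as replicate 4 did. Single values had exact two-sided permutation tests (scipy 1.17.1).

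Same-numbered arrays deviated together from their group means over genes (r = 0.109, 0.167, 0.576 and 0.808, all above the limit of 0.1). The block is therefore given where it changes a call, and beside some values whose call it leaves unchanged. The highest correlations with another number were 0.250, 0.538, 0.489 and −0.314, above the own number for replicates 1 and 2. The limit was not met over probe sets (lowest 0.0787) or over genes after cyclic loess (0.0678 and 0.0279 for replicates 1 and 2). The members and lists were chosen with earlier results of these data known. Named genes are all members, genes called in a planned fit and up to 3 of lowest p in each list, the 5 most like SRD5A1, and markers. The alternatives were the block, 1 array or pair left out, cyclic loess, median centring, array weights, a filter on low values, a trended prior and other choices of probe set. The number of arrays limits the precision, and p values cover the spread between these samples.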

Additional observations from a re-analysis of the deposited data

Results flagged for a closer look

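Of 34 groups of 4 arrays (17 probe sets in miR-143 and in mock cells), 1 held an array far from its fellows, where chance gives about 1 in 20. Probe set 1559518_at of HSD17B12 read 6.67 in miR-143 replicate 3, and replicates 1, 2 and 4 lay between 6.57 and 6.58. The probe set lies below the median of all probe sets.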

How the results depend on the processing

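All alternatives ran. Where a value moved and its construction does not show why, the cause was not tested. With the replicate block 123 genes were called lower and 33 higher, and 171 and 45 probe sets, where the fit without it called 0 genes and 1 probe set (OIP5-AS1, lower). Without pair 1, 2, 3 or 4 the blocked counts were 57, 68, 33 and 42 genes lower, 16, 11, 9 and 16 higher, 136, 122, 32 and 49 probe sets lower, and 21, 14, 8 and 19 higher. Without a block, cyclic loess called 31 genes lower and 22 higher (37 and 23 probe sets), array weights 36 and 20 (35 and 19), and leaving out both replicate 4 arrays, chosen after seeing the data, 30 and 13 (32 and 19). Chosen likewise, the block with loess called 76 and 53 genes (108 and 69 probe sets), and with the mean of all probe sets 35 and 3 genes. The probe set of largest interquartile range called 1 gene lower. Median centring and a trended prior called 0 probe sets lower, and leaving out 1 array 0 to 1.

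SRD5A1 was called with the block (−0.39), also without pair 1 (−0.39) or pair 2 (−0.44) and with loess (−0.35), so that 1 member was called lower in each of these 4. For pathway genes 1 was called lower with the block, without pair 1, 2 or 4, and with loess. The permutation test of SRD5A1 missed the threshold in pairs (−0.39, exact sign-flip p = 0.125, the smallest 4 pairs allow), after loess (−0.35, exact permutation p = 0.0857) and without both replicate 4 arrays (−0.37, exact permutation p = 0.1, the smallest possible). With 1 array left out SRD5A1 lay between −0.439 and −0.335, missing without mock replicate 1 (exact permutation p = 0.0571).

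With 1 array left out, 3 to 7 members were negative (3 without mock replicate 4, 7 without miR-143 replicate 4), and 0 to 5 differences from SRD5A1 passed (5 without mock replicate 4). The filter on low values left fewer genes, with 38 pathway genes negative. That count is over fewer pathway genes than the 61 of 92 without the filter, so the counts are not comparable. Uncalled changes crossed 0 with 1 array left out: HSD17B11 (−0.065 to 0.063), HSD17B4 (−0.113 to 0.167), HSD17B8 (−0.029 to 0.085), SRD5A2 (−0.054 to 0.031) and HSD17B12 (−0.182 to 0.013). HSD17B11 was 0.035 after loess and 0.042 without both replicate 4 arrays, where HSD17B4 was −0.000105. The replicate block changed no other member's call.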
